A study of Glycine max with 12 samples.

Results

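The SWEET genes of soybean (Glycine max) were followed in leaf RNA of plants grown with and without water deficit, heat, or both. Members were the rows whose identifier begins with SWEET or GMSWEET and whose mean normalized count over the 12 libraries was at least 10. Of 44 such symbols in the deposited table, 19 passed that minimum (43.2%), 7 had reads but a lower mean, and 18 were at 0 in every library. The symbols run from GMSWEET1 to GMSWEET52 with gaps in the numbers, so SWEET genes listed under other identifiers are not covered. The table lists 55051 genes, of which 33119 passed the same minimum. All plants were wild type, of the cultivar labelled "Magellan, PI595362", raised in growth chambers, and the tissue was leaf. The 4 groups were untreated controls, water deficit alone, heat stress alone, and combined stress (water deficit and heat together), with 3 libraries each. The labels used here give no severity, duration or harvest time for the treatments, and they do not say whether the libraries of a group came from separate plants. The p-values therefore measure the spread between these libraries, which may be technical.

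SWEET proteins are membrane transporters that let sugars move down their concentration gradient in either direction, and they carry sucrose or monosaccharides such as glucose and fructose. In leaves some of them release sucrose from the cells that produce it into the cell wall space around the phloem, from which proton-coupled sucrose transporters load it into the veins. Others sit in the vacuole membrane and move stored sugars, and the family also serves nectaries, pollen and developing seeds. The soybean numbers are not those of the Arabidopsis genes, so roles known from Arabidopsis are not carried over to single members here. GMSWEET39 and its homolog GMSWEET24 are known in soybean for their part in seed oil and protein content, and GMSWEET16 carries the older name N3 in the RefSeq name table. All 3 of these genes were at 0 in every leaf library.

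Depth was 26077068 to 46186226 reads per library. The 7 leaf marker symbols (Rubisco small subunit, Rubisco activase and chlorophyll a/b binding proteins) summed to normalized counts of 455259 to 874913 in control, 342562 to 616829 under water deficit, 252313 to 684849 under heat stress and 254607 to 375045 under combined stress. Of 15 nodule and seed marker symbols 13 were at 0 in all libraries, and their sum was at most 2.79 in any library. The mean of the leaf marker sum was lowest in combined stress, but the leaf markers did not move together. From control to combined stress the means of RBCS-1, CAB3, LHCB1-7 and RCA11 went from 284036 to 99091, 208399 to 105438, 32203 to 2113 and 53582 to 38226. Those of the activase symbols RCA03, RCA14 and RCAALPHA went from 103.1 to 7249, 2447 to 10010 and 29254 to 47853. The part of these markers in the results was not tested. In bulk RNA fewer cells of a type cannot be told apart from less RNA per cell. Heat stress library 3 stood apart: its Pearson r across genes was 0.893 and 0.888 with the other heat stress libraries, against 0.949 with control library 2 and 0.946 with combined stress library 2. Comparisons that involve heat stress were therefore also run without it. LCL3, a symbol of the daily clock, had normalized counts of 2013 in heat stress library 3 and of 1863 and 2112 in combined stress libraries 2 and 3. It had 204.3 and 153.3 in heat stress libraries 1 and 2, 308.1 in combined stress library 1, 331.6 to 415.9 in control and 501.6 to 787.5 in water deficit. GMLUXB, another clock symbol, had 9.82, 38.9 and 42.4 in the 3 heated libraries with high LCL3, 115.2 to 337.0 in the other heated ones and 250.8 to 426.7 in the unheated ones. Without heat stress library 3 the heat stress group held only libraries with low LCL3, while combined stress libraries 2 and 3 had high LCL3. Fits of combined stress against heat stress without that library therefore cannot fully separate treatment from this split. Heat stress libraries 1 and 2 also had less LCL3 than any control or water deficit library. Without library 3, heat stress against those groups therefore cannot be fully separated from this difference in LCL3 either. The part of this split in the results was not tested.

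Combined stress held the highest group mean in 10 of the members, and heat stress held the lowest in 9. Over all tested genes, 26.6% were highest in combined stress and 24.3% lowest in heat stress. GMSWEET28 alone had its highest mean in control and its lowest in combined stress. The median log2 change from control over the 19 members was 0.36 under water deficit, -0.41 under heat stress and 0.64 under combined stress, beside medians over all genes tested of 0.02, -0.01 and -0.01. These comparisons share the control libraries. For 5 members (GMSWEET4, GMSWEET13, GMSWEET17, GMSWEET30 and GMSWEET41) the control mean was under 10. They entered through the groups in which they were higher, so these medians and the counts over members describe the list and support no statement about the family.

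**Figure D1:**
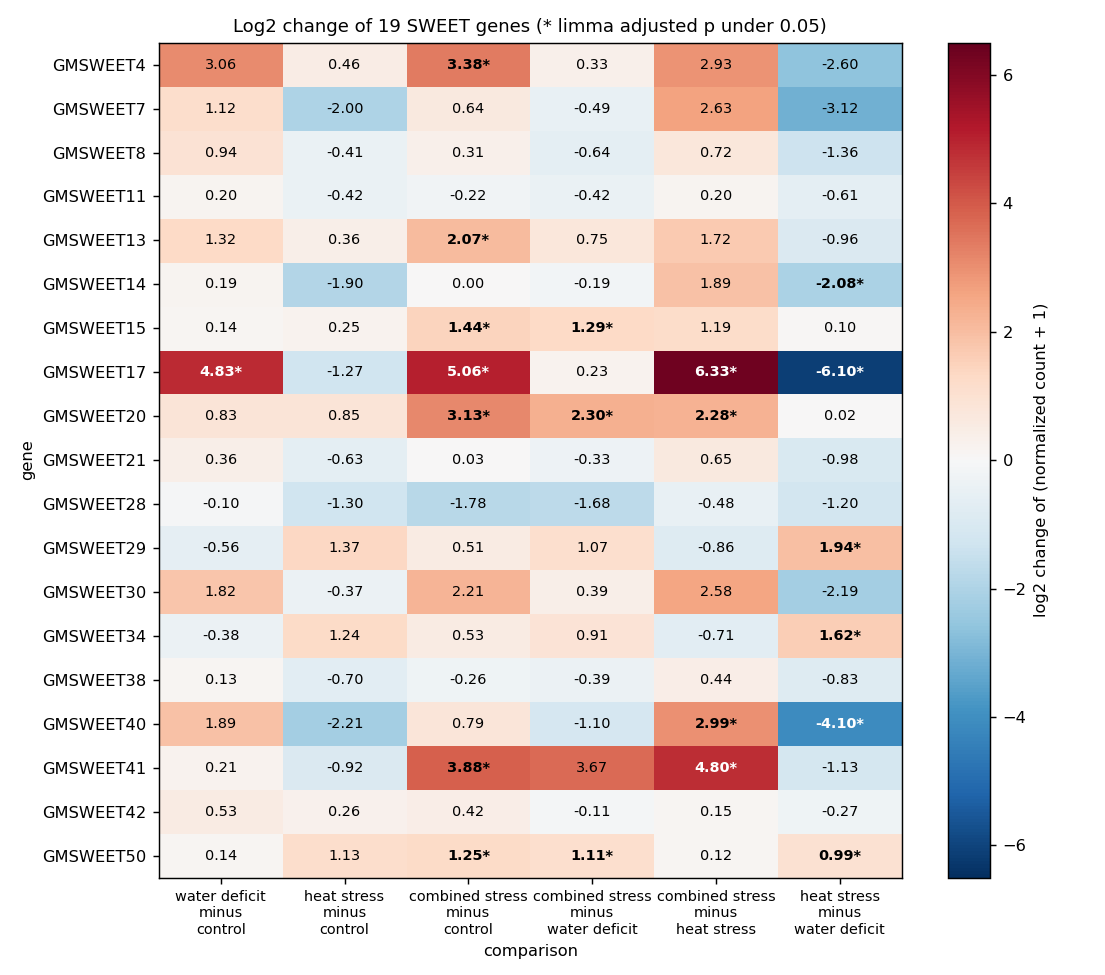
Log2 change of log2(normalized count + 1) for the 19 SWEET genes (rows) in 6 comparisons between groups (columns), with 3 libraries per group; asterisks mark a limma adjusted p under 0.05. GMSWEET17 has the darkest cells, from -6.10 for heat stress minus water deficit to 6.33 for combined stress minus heat stress, and the column of heat stress minus control has no asterisk.

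Combined stress against control asks how the members stood when drought and heat came together. Of the 19 members, 7 rose and 0 fell by limma on log2(normalized count + 1), adjusted over all 33119 genes with a call at an adjusted p under 0.05. Among all genes tested, 13.8% were called, 6.56% higher and 7.25% lower. Of the members called, 4 (GMSWEET4, GMSWEET13, GMSWEET17 and GMSWEET41) were among the 5 with a control mean under 10, and the other 3 (GMSWEET15, GMSWEET20 and GMSWEET50) were among the 14 with a higher one. In 8 members every combined stress library lay above every control library, and in 1 every one lay below, beside 18.5% and 19.7% of all genes tested. The 8 included all 5 members with a control mean under 10, which entered through groups in which they were higher. Both this count and that of the calls describe the list only. With 1 library left out, the count of members called was 2 without control library 1, control library 3 or combined stress library 3, 3 without control library 2, and 5 to 8 without any other library. Here and below, such counts are given without the share of all genes called in the same fit. They describe how stable the calls were and support no statement about the family.

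GMSWEET20 had 991.2, 709.3 and 576.3 normalized counts in the control libraries, 1955, 632.5 and 1836 under water deficit, 500.6, 1562 and 3012 under heat stress and 4745, 7277 and 7857 under combined stress. The combined stress libraries lay above all 9 others, and the single stresses overlapped with control and with each other. Its mean was 6626 ± 1655 in combined stress against 758.9 ± 211.8 in control (SD, n = 3 each), a log2 change of 3.13 (limma adjusted p 0.00541, SE 0.58). This call held in all 12 fits that each left out 1 library, with an adjusted p of at most 0.0289. GMSWEET20 also exceeded water deficit by 2.30 (limma adjusted p 0.0255, SE 0.58) and heat stress by 2.28 (limma adjusted p 0.0437, SE 0.58). The call against water deficit was lost without water deficit library 2 or combined stress library 2 or 3 (adjusted p 0.0676 to 0.0976). The call against heat stress was kept without water deficit library 2 or 3 or heat stress library 3 and lost without any of the other 9 libraries (adjusted p 0.0546 to 0.154). Without heat stress library 3 the change was 2.87 (limma adjusted p 0.0054). Over 9 alternative settings the adjusted p against heat stress ran from 0.0054 to 0.155, and the call was lost with edgeR, without the filter on low genes, without a variance trend, and with only the libraries of these groups.

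GMSWEET15 had 3172, 3583 and 3330 normalized counts in control, 3825, 2651 and 5039 under water deficit, 3326, 3051 and 6240 under heat stress and 10797, 5351 and 13049 under combined stress. Control was tight, and combined stress library 2 lay below heat stress library 3. The mean was 9732 ± 3958 in combined stress against 3362 ± 207.5 in control (SD, n = 3 each), a log2 change of 1.44 (limma adjusted p 0.0232, SE 0.36). It was lost without control library 1, 2 or 3 or combined stress library 3 (adjusted p 0.0578 to 0.102). Against water deficit the log2 change was 1.29 (limma adjusted p 0.0378, SE 0.36). That call was lost without any 1 of 7 libraries (control 1, 2 and 3, water deficit 1 and 2, combined stress 1 and 3; adjusted p 0.0521 to 0.156). Over 9 settings its adjusted p ran from 0.0038 to 0.0794, and it was also lost without a variance trend and with only the groups compared. Against heat stress the log2 change of 1.19 did not pass (limma adjusted p 0.0829); without heat stress library 3 it was 1.51 (limma adjusted p 0.0141).

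The summed normalized count of the 19 members, which is not corrected for transcript length, was 9045, 10299 and 9853 in the control libraries, 13572, 10902 and 12359 under water deficit, 8220, 9983 and 16640 under heat stress and 20038, 21245 and 29461 under combined stress. GMSWEET15 and GMSWEET20 made up 39.6% to 46% of this sum in control, 30.1% to 55.6% under water deficit, 46.2% to 55.6% under heat stress and 59.4% to 77.6% in combined stress. The sum of the other 17 members had a mean of 5612 ± 632.7 in control and 7223 ± 2361 in combined stress (SD, n = 3 each), and it ran from 4497 in combined stress library 1 to 8616 in library 2. These sums are a description, with no test.

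GMSWEET50 had 738.3, 963.8 and 445.6 normalized counts in control, 679.3, 882.4 and 712.6 under water deficit, 1530, 1988 and 1099 under heat stress and 1320, 1514 and 2159 under combined stress. The heated libraries, with and without water deficit, all lay above the unheated ones. The log2 change in combined stress was 1.25 against control (limma adjusted p 0.0187, SE 0.30) and 1.11 against water deficit (limma adjusted p 0.0338, SE 0.30). The first was lost without control library 1 or 3 or combined stress library 3 (adjusted p 0.0514 to 0.0859). The second was lost without any 1 of 6 libraries (control 1, water deficit 1, 2 and 3, combined stress 2 and 3; adjusted p 0.0516 to 0.142). Over 9 settings the adjusted p of the second ran from 0.00401 to 0.0619, and it was lost with the same total per library and without a variance trend. Heat stress alone against control gave a like size, 1.13 (SE 0.30), that missed the threshold (limma adjusted p 0.0647); without heat stress library 3 it was 1.35 (limma adjusted p 0.0177). Combined stress and heat stress differed by 0.12 (limma adjusted p 0.85, SE 0.30).

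GMSWEET17 separated the groups by water supply. It had 4.41, 11.4 and 0 normalized counts in control, 191.3, 121.7 and 64.7 under water deficit, 3.78, 0 and 0 under heat stress and 101.6, 132.6 and 180.1 under combined stress. Every library short of water lay above every watered one, whether heated or not. The log2 change was 4.83 in water deficit (limma adjusted p 0.0268, SE 0.89) and 5.06 in combined stress (limma adjusted p 0.00399, SE 0.89), both against control. The first was lost without control library 1 or 3 or any water deficit library (adjusted p 0.0651 to 0.113), and the second held in all 12 such fits. Combined stress exceeded heat stress by 6.33 (limma adjusted p 0.00365, SE 0.89), and heat stress lay below water deficit by the log2 change of -6.10 (limma adjusted p 0.00207, SE 0.89); both held in all 12 fits. The heat stress libraries held 3 reads of GMSWEET17 in all, against 508 in combined stress and 411 in water deficit, so these log2 values depend on the pseudocount of 1. Scaled for library size, the ratio of reads was 138 for combined stress to heat stress (95% exact interval 47 to 672) and 124 for water deficit to heat stress (42.3 to 605), which cover counting error only. Combined stress and water deficit differed by 0.23 (limma adjusted p 0.895, SE 0.89).

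GMSWEET4 was low throughout. It had 2.64, 0 and 1.05 normalized counts in control, 38.3, 10.1 and 8.86 under water deficit, 2.52, 0 and 4.47 under heat stress and 7.43, 18.2 and 51.2 under combined stress. As with GMSWEET17, all libraries under water deficit, heated or not, lay above the rest. The log2 change was 3.38 in combined stress (limma adjusted p 0.0355, SE 0.95) and did not pass in water deficit, at 3.06 (limma adjusted p 0.157, SE 0.95). DESeq2 called GMSWEET4 higher in water deficit (3.97, DESeq2 adjusted p 0.0332), and edgeR did not. Control held 4 reads of it in all against 95 in combined stress, a scaled ratio of 22 (95% exact interval 8.33 to 82.6, counting error only). The limma call in combined stress was lost without any 1 of 6 libraries (control 1, 2 and 3, water deficit 2, combined stress 2 and 3), with an adjusted p of 0.0509 to 0.162. Over 8 settings its adjusted p ran from 0.00397 to 0.0593, the latter with a pseudocount of 10, where the call was lost and the log2 change was 1.48.

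GMSWEET13 had 11.5, 7.62 and 6.28 normalized counts in control, 32.7, 10.98 and 29.25 under water deficit, 7.57, 16.7 and 9.82 under heat stress and 62.8, 27.3 and 31.2 under combined stress. Combined stress lay above control and heat stress in all libraries and overlapped with water deficit. Its log2 change in combined stress was 2.07 (limma adjusted p 0.0273, SE 0.54), lost without control library 1, 2 or 3 or combined stress library 1 or 3 (adjusted p 0.0534 to 0.0929).

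GMSWEET41 rested on a pair of libraries. It had 0.881, 5.33 and 9.41 normalized counts in control, 8.40, 2.75 and 4.43 under water deficit, 0, 1.86 and 5.36 under heat stress and 9.91, 161.6 and 220.9 under combined stress. Combined stress library 1 was just above the highest control library, while libraries 2 and 3, the ones with high LCL3, were far above all others; the part of that split in the result was not tested. The log2 change was 3.88 against control (limma adjusted p 0.0428, SE 1.14) and 4.80 against heat stress (limma adjusted p 0.0344, SE 1.14). It was 3.67 against water deficit, which missed the threshold (limma adjusted p 0.0546). That comparison was called by edgeR (adjusted p 0.0216) and DESeq2 (0.000158), with a pseudocount of 10 (0.0332), and without heat stress library 3 (0.04) or combined stress library 1 (0.00753). The call against control was kept without heat stress library 1 or 3 or combined stress library 1 and lost without any of the other 9 (adjusted p 0.0518 to 0.182). Its adjusted p over 8 settings ran from 0.000133 to 0.0717, and it was lost with a pseudocount of 0.5 and with only the groups compared. The call against heat stress was lost without any 1 of 6 libraries (control 2, water deficit 1, heat stress 1 and 2, combined stress 2 and 3; adjusted p 0.0529 to 0.153). Its adjusted p ran from 2.06e-05 to 0.155 over 8 settings, and it was lost with only the groups compared.

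**Figure D2:**
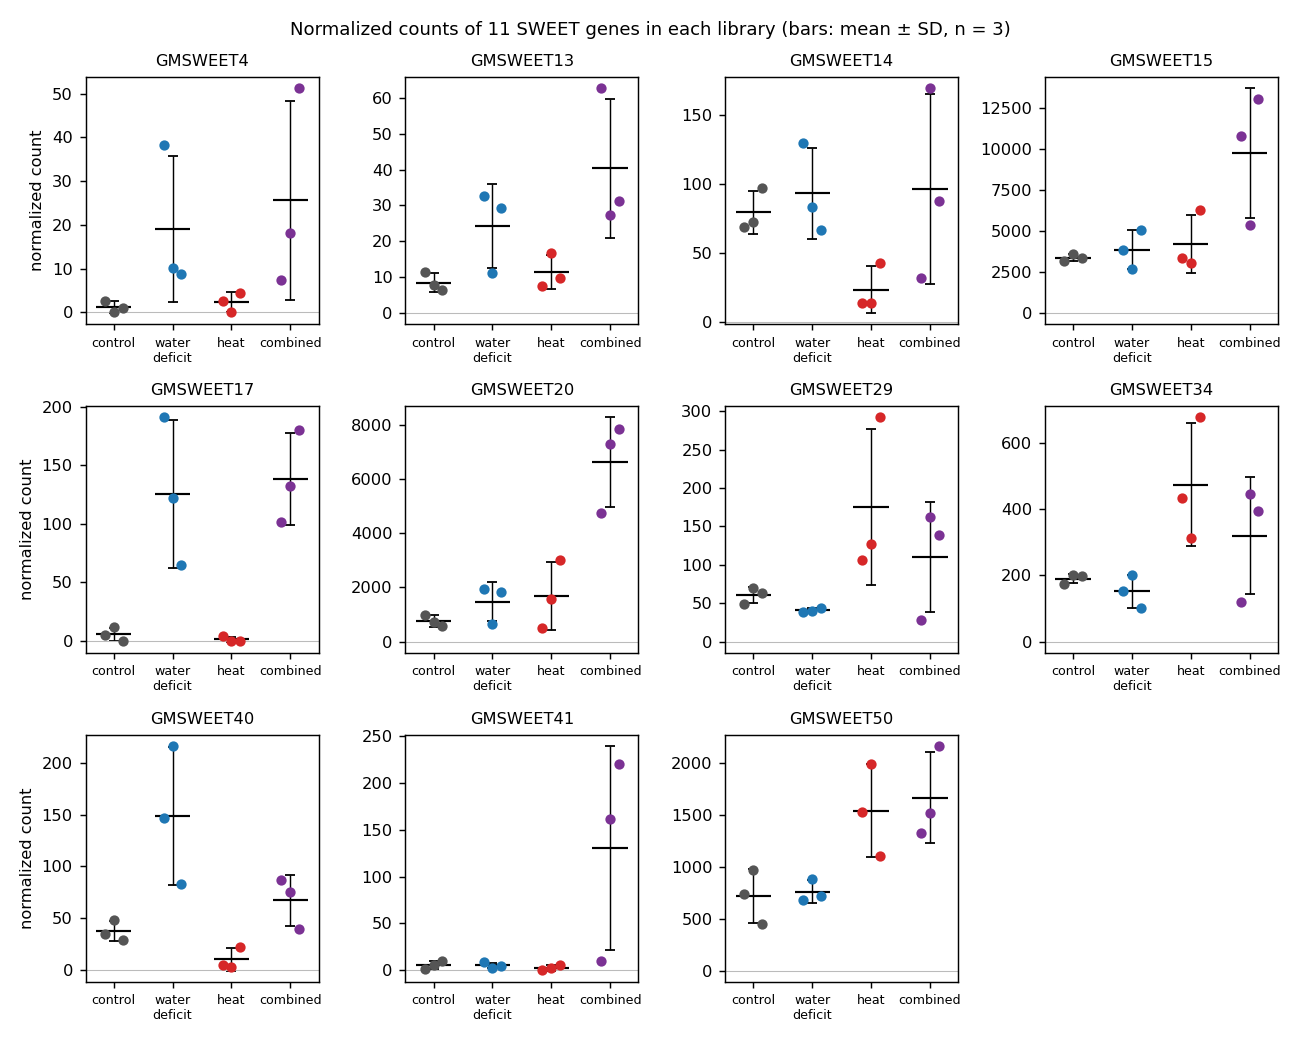
Normalized counts (y axes, linear, each panel with its own scale) of the 11 SWEET genes called in at least 1 comparison, in control, water deficit, heat stress and combined stress; points are libraries, lines are means and bars SD (n = 3). GMSWEET20 in combined stress (4745 to 7857) lies above all other libraries, and GMSWEET17 is near 0 in both groups that were watered.

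Water deficit against control asks about drought alone. GMSWEET17 was the single member called (1 of 19), where 1.28% of all genes tested were called, 0.589% higher and 0.688% lower. The log2 change was above 0 in 16 members and below 0 in 3, beside 52% of all genes above 0. In 5 members all water deficit libraries lay above all control libraries and in 1 all lay below, where 13.9% and 13.5% of all genes did so. Of the 5, GMSWEET4 and GMSWEET17 were among the members with a control mean under 10. The count was 0 without control library 1 or 3 or any water deficit library and 2 without heat stress library 3, where GMSWEET40 joined GMSWEET17. GMSWEET40 had 34.4, 48.0 and 29.3 normalized counts in control and 146.5, 216.0 and 82.4 in water deficit, without overlap. Its log2 change of 1.89 did not pass (limma adjusted p 0.18, SE 0.62), and the limma adjusted p was 0.0492 without heat stress library 3. It was called by DESeq2 (1.97, DESeq2 adjusted p 0.0232) and with only the groups compared (limma adjusted p 0.0355), but not by edgeR. Over all genes tested, DESeq2 called 1873 in this comparison and limma 423.

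Heat stress against control gave no call among the 19 members with limma, where 3.11% of all genes tested were called, 1.72% higher and 1.39% lower. All heat stress libraries lay above all control libraries in 3 members and below them in 3, beside 13.5% and 13.3% of all genes. At an unadjusted p under 0.05 there were 6 members, beside 21.1% of all genes. edgeR called 0, and DESeq2 called 4: GMSWEET34 and GMSWEET50 higher, GMSWEET14 and GMSWEET40 lower. Over all genes tested, DESeq2 called 3314 in this comparison and limma 1031. Without heat stress library 3 the heat stress group held only libraries with low LCL3, and the share of all genes called is not given here. In that fit limma called 5 members, a count that supports no statement about the family. GMSWEET50 was higher, and GMSWEET14 (log2 change -2.42, limma adjusted p 0.0186), GMSWEET21 (-1.16, limma adjusted p 0.0189), GMSWEET38 (-1.25, limma adjusted p 0.0113) and GMSWEET40 (-2.97, limma adjusted p 0.00407) were lower. Without combined stress library 1 the count was 3 (GMSWEET14, GMSWEET29 and GMSWEET34), and it was 0 without any other single library. With all 12 libraries the log2 changes of GMSWEET14, GMSWEET21, GMSWEET38 and GMSWEET40 were -1.90, -0.63, -0.70 and -2.21. Heat stress libraries 1 and 2 held 754.1 and 969.3 normalized counts of GMSWEET21 and library 3 held 2583, against 1510, 2087 and 2201 in control. For GMSWEET38 the heat stress libraries held 153.8, 178.4 and 518.8, against 334.8, 386.3 and 477.0 in control. In both genes library 3 lay above every control library and libraries 1 and 2 below every one.

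Set directly against each other, heat stress and water deficit gave 3 members higher in heat (GMSWEET29, GMSWEET34 and GMSWEET50) and 3 lower (GMSWEET14, GMSWEET17 and GMSWEET40), where 8.16% and 8.19% of all genes were called in these directions and 16.4% in all. Heat stress lay above water deficit without overlap in 3 members and below it in 6, beside 17.6% and 17.7% of all genes. Of the 6, GMSWEET4 and GMSWEET17 were among the members with a control mean under 10. GMSWEET40 had 5.04, 2.79 and 22.3 normalized counts in heat stress and 86.7, 75.4 and 39.2 in combined stress, beside the control and water deficit values given above. Its group mean was highest in water deficit and lowest in heat stress, with control and combined stress between. It was lower in heat stress than in water deficit by the log2 change of -4.10 (limma adjusted p 0.00252, SE 0.62), a call kept in all 12 fits that left out 1 library. Combined stress exceeded heat stress by 2.99 (limma adjusted p 0.0205, SE 0.62). That call was lost without heat stress library 1 or 2 or combined stress library 1 or 2 (adjusted p 0.0505 to 0.0926). It was also lost with only the groups compared (adjusted p 0.146, the range over 8 settings being 0.000742 to 0.146), and without heat stress library 3 the change was 3.75 (limma adjusted p 0.00102).

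GMSWEET14 had 68.7, 72.4 and 97.3 normalized counts in control, 129.7, 83.3 and 66.5 under water deficit, 13.9, 13.9 and 42.9 under heat stress and 32.2, 169.0 and 87.3 under combined stress. Heat stress lay below both unheated groups in all libraries, and combined stress ran from below every unheated library to above them all. It was lower in heat stress than in water deficit by the log2 change of -2.08 (limma adjusted p 0.0309, SE 0.58). The call was lost without any water deficit library or heat stress library 1 or 2 (adjusted p 0.0571 to 0.111), and with only the groups compared (0.0576, over 8 settings 0.00876 to 0.0576). The count of members in this comparison was 2 without water deficit library 1 or 3 or heat stress library 1, 3 without water deficit library 2 or heat stress library 2, and 9 without heat stress library 3. For these fits the share of all genes called is not given here.

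GMSWEET29 and GMSWEET34 had the same order of group means: heat stress highest, then combined stress, control and water deficit. GMSWEET29 had 49.3, 70.1 and 63.8 normalized counts in control, 38.3, 39.4 and 44.3 under water deficit, 105.9, 127.3 and 292.0 under heat stress and 28.1, 162.4 and 139.3 under combined stress. GMSWEET34 had 173.6, 201.1 and 196.6 in control, 153.0, 200.5 and 101.9 under water deficit, 432.5, 312.3 and 676.9 under heat stress and 118.9, 445.7 and 394.6 under combined stress. In both genes heat stress lay above the unheated groups without overlap, and combined stress library 1 lay apart from libraries 2 and 3, below every control library. Heat stress exceeded water deficit by 1.94 in GMSWEET29 (limma adjusted p 0.0406, SE 0.58) and by 1.62 in GMSWEET34 (limma adjusted p 0.0333, SE 0.46). The call of GMSWEET29 was kept only without a combined stress library (3 of 12 fits) and lost without any of the other 9 libraries (adjusted p 0.0555 to 0.0984). It was also lost when low genes were kept and when no variance trend was fitted, the adjusted p over 8 settings being 0.00215 to 0.0535. The call of GMSWEET34 was lost without water deficit library 1 or 3 or heat stress library 1 or 3 (adjusted p 0.0705 to 0.117). GMSWEET50 exceeded water deficit by 0.99 in heat stress (limma adjusted p 0.0442, SE 0.30), a call lost without any 1 of 7 libraries (control 1, water deficit 1, 2 and 3, heat stress 1 and 2, combined stress 2; adjusted p 0.0583 to 0.146). It was also lost under 4 of 9 settings (same total per library, no filter on low genes, no variance trend, only the groups compared), with an adjusted p of 0.0104 to 0.0785 over the 9.

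Adding heat to water deficit, that is combined stress against water deficit, gave 3 members higher (GMSWEET15, GMSWEET20 and GMSWEET50) and 0 lower, beside 12.7% of all genes tested called, 5.87% higher and 6.87% lower. Its libraries lay above those of water deficit without overlap in 4 members and below in 1, beside 17.4% and 18.5% of all genes. Of the 4, GMSWEET41 was among the members with a control mean under 10. The count was 0 without water deficit library 2 or combined stress library 3 and 1 without control library 1, water deficit library 1 or combined stress library 2. It was 2 without control library 2 or 3 or water deficit library 3, and 5 without heat stress library 3 or combined stress library 1. Adding water deficit to heat, that is combined stress against heat stress, gave 4 members higher (GMSWEET17, GMSWEET20, GMSWEET40 and GMSWEET41) and 0 lower, beside 5.21% of all genes called, 2.38% higher and 2.83% lower. All libraries of combined stress lay above all of heat stress in 7 members and below them in 0, beside 9.17% and 10.2% of all genes tested. The 7 included GMSWEET4, GMSWEET13, GMSWEET17, GMSWEET30 and GMSWEET41, which had a control mean under 10 and entered through groups in which they were higher. GMSWEET17 and GMSWEET41 were also among the 4 called, so this describes the list only. The count was 11 without heat stress library 3, 1 without heat stress library 1 or 2, and 2 without control library 2, water deficit library 1 or combined stress library 2 or 3. For these fits the share of all genes called is not given here. GMSWEET20 was the single member called in both of these comparisons and against control. For the interaction, which asks whether heat acted differently with and without water deficit, limma called 0 of the 19 members and 0 of all genes. At an unadjusted p under 0.05 there was 1 member, GMSWEET41 (log2 value 4.59, limma adjusted p 0.45, SE 1.61), beside 9.46% of all genes. edgeR called 0 members and DESeq2 called GMSWEET41 (5.72, DESeq2 adjusted p 0.0364).

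**Figure D3:**
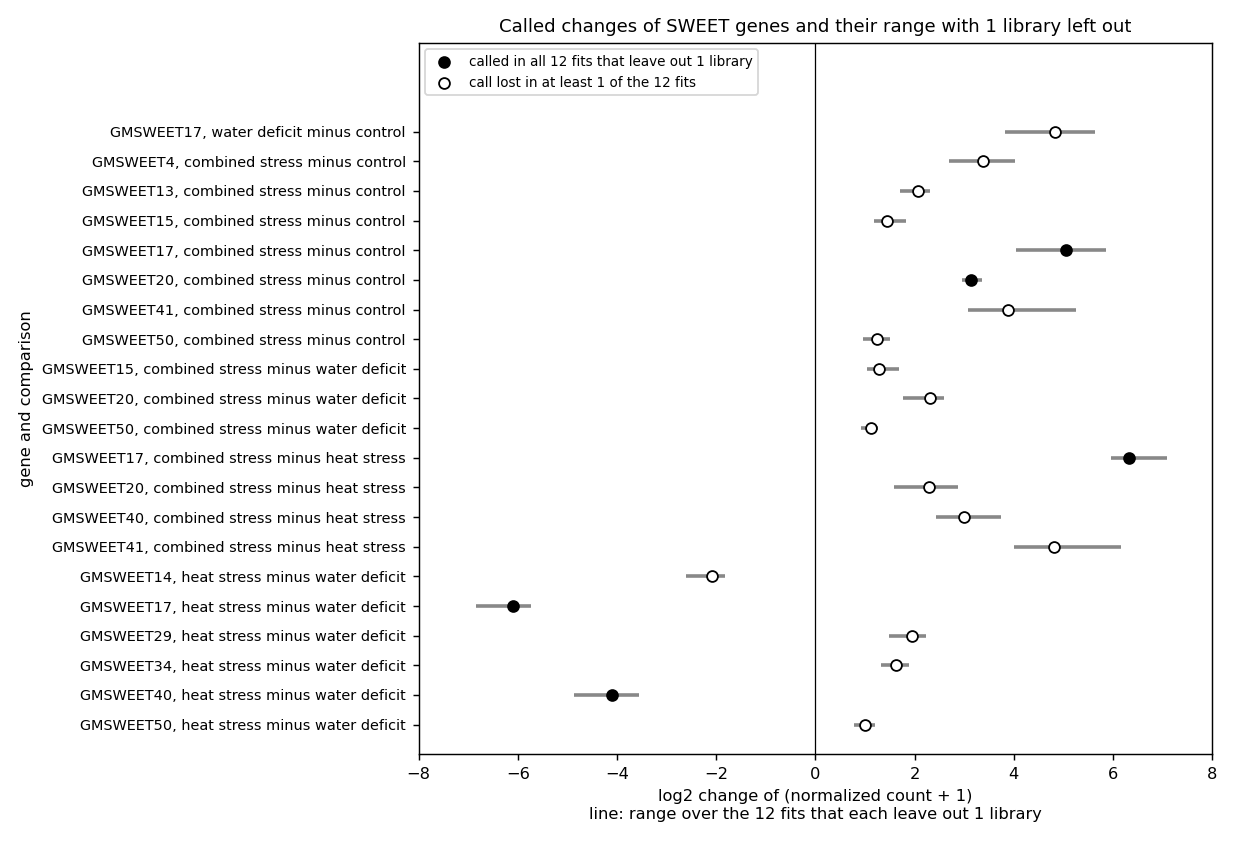
Log2 change (x axis, of normalized count + 1) of the 21 called pairs of gene and comparison (y axis); points are values from all 12 libraries and lines the range over 12 fits that each left out 1 library. All lines stay on their side of 0, and 5 points are filled because the call was kept in every fit: GMSWEET17 in 3 comparisons, GMSWEET20 in combined stress against control and GMSWEET40 in heat stress against water deficit.

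In all, 21 of 133 pairs of member and comparison were called, in 11 of the 19 members. Over all genes tested, the share called per comparison ran from 0% (interaction) to 16.4% (heat stress against water deficit). Among the 11, GMSWEET4, GMSWEET13, GMSWEET17 and GMSWEET41 had a control mean under 10 and entered through groups in which they were higher. The count therefore describes the list only. Of the 21, 5 were kept in all 12 fits that each left out 1 library and 16 were lost in at least 1. The 8 members that limma called in no comparison with all 12 libraries were GMSWEET7, GMSWEET8, GMSWEET11, GMSWEET21, GMSWEET28, GMSWEET30, GMSWEET38 and GMSWEET42. Of these, DESeq2 called GMSWEET28 and GMSWEET30.

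GMSWEET28 had the lowest log2 value of the members in combined stress against control. It had 74.0, 64.0 and 45.0 normalized counts in control, 56.0, 86.0 and 35.5 under water deficit, 36.6, 39.0 and 8.93 under heat stress and 14.0, 25.7 and 12.8 under combined stress. Combined stress lay below both unheated groups in all libraries. Its log2 change of -1.78 in combined stress (SE 0.56) missed the threshold with limma (adjusted p 0.0536), and was -1.78 at an adjusted p of 0.0114 without heat stress library 3. It was called lower by DESeq2 (adjusted p 0.0118), with a pseudocount of 10 (0.0438) and with only the groups compared (0.0278).

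GMSWEET30 had 5.29, 12.2 and 8.37 normalized counts in control, 36.4, 11.9 and 70.0 under water deficit, 8.83, 0.929 and 17.9 under heat stress and 32.2, 64.6 and 34.4 under combined stress. Combined stress lay above control and heat stress in all libraries, with log2 changes of 2.21 (limma adjusted p 0.0977, SE 0.83) and 2.58 (limma adjusted p 0.0967, SE 0.83). The first was called by DESeq2 (adjusted p 0.0274), with only the groups compared (0.0258) and without heat stress library 2 (0.0428). The second was called without heat stress library 3 (3.29, limma adjusted p 0.0186). DESeq2 also called GMSWEET30 lower in heat stress than in water deficit (-2.10, DESeq2 adjusted p 0.0499), as did limma without heat stress library 3 (-2.90, limma adjusted p 0.0264). GMSWEET7 had 11.5, 22.1 and 31.4 in control, 49.5, 46.7 and 39.0 under water deficit, 5.04, 0 and 23.2 under heat stress and 6.61, 76.2 and 58.4 under combined stress. Water deficit was above control and heat stress without overlap, and the heat stress value against water deficit, -3.12 (SE 1.07), missed the threshold (limma adjusted p 0.0667; 0.0116 without heat stress library 3).

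GMSWEET11 had group means of 1791 ± 263.4 in control, 2123 ± 691.1 under water deficit, 1365 ± 381.3 under heat stress and 1782 ± 998.0 under combined stress (SD, n = 3 each), and its combined stress libraries ran from 639.3 to 2484. GMSWEET42 had 282.9 ± 32.6, 414.1 ± 94.0, 340.1 ± 42.1 and 381.8 ± 73.7 in the same order (SD, n = 3 each). Its log2 change was 0.53 in water deficit (limma adjusted p 0.29), where all libraries lay above control. GMSWEET21, with control and heat stress values given above, had 2746, 2558 and 2069 in the water deficit libraries and 1356, 2414 and 2251 in the combined stress ones, which overlapped with control. Its group means were 1933 ± 370.2, 2458 ± 349.8, 1436 ± 999.8 and 2007 ± 569.5 (SD, n = 3 each). GMSWEET8 was between 5.33 and 30.6 in all libraries.

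Neighbouring copies were compared because SWEET genes often lie in tandem. In the RefSeq name table (assembly Glycine_max_v4.0), 43 of the 44 symbols were found, 23 as a listed synonym and 20 as the symbol without the leading GM. By that table GMSWEET20 and GMSWEET21 are adjacent, with 0 protein-coding genes between them, and GMSWEET15, GMSWEET16 and GMSWEET17 lie in a row. The genes of a row had different patterns. GMSWEET20 rose in combined stress by 3.13 on the log2 scale, while GMSWEET21 had a value of 0.03 (limma adjusted p 0.97, SE 0.39) and combined stress libraries of 1356, 2414 and 2251. GMSWEET15 was read in every library, with at least 2651 normalized counts, GMSWEET16 had 0 reads in any, and GMSWEET17 had at most 11.4 normalized counts in control and heat stress. The differences between neighbours were not tested. GMSWEET5, next to GMSWEET4, and GMSWEET47, next to GMSWEET48, were at 0 as well. How reads shared by similar copies were counted is not given in the sources used here, so values of single copies are uncertain to that extent.

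Among the 7 symbols with reads but a mean under 10, GMSWEET48 had 0 reads in each of the control and heat stress libraries, 2, 3 and 1 reads in water deficit and 7, 7 and 23 in combined stress. GMSWEET31 had 15 and 42 reads in heat stress libraries 1 and 2 and at most 8 in any other library. GMSWEET36 and GMSWEET37 were between 0 and 18.2 normalized counts in all libraries, and GMSWEET1, GMSWEET33 and GMSWEET44 had means under 1. Just inside the minimum were GMSWEET4 (mean 12.1) and GMSWEET8 (13.6), and just outside were GMSWEET36 (6.95) and GMSWEET31 (6.25).

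In 10 of the 19 members (52.6%) heat stress library 3 was the highest of the heat stress libraries and combined stress library 1 the lowest of the combined stress libraries, as LCL3 was. Of all genes tested, 23.1% had this arrangement, and 23.2% had the opposite one, which 1 member (GMSWEET8) shared. The 10 members were GMSWEET4, GMSWEET7, GMSWEET11, GMSWEET14, GMSWEET20, GMSWEET21, GMSWEET29, GMSWEET30, GMSWEET34 and GMSWEET41. This was counted after the values had been seen, and its part in the comparisons was not tested. GMSWEET20, among the 10, had 500.6 and 1562 in heat stress libraries 1 and 2 against 3012 in library 3. It had 4745 in combined stress library 1 against 7277 and 7857 in libraries 2 and 3, each above all 9 libraries of the other groups. The part of the split in these values was not tested.

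**Figure D4:**
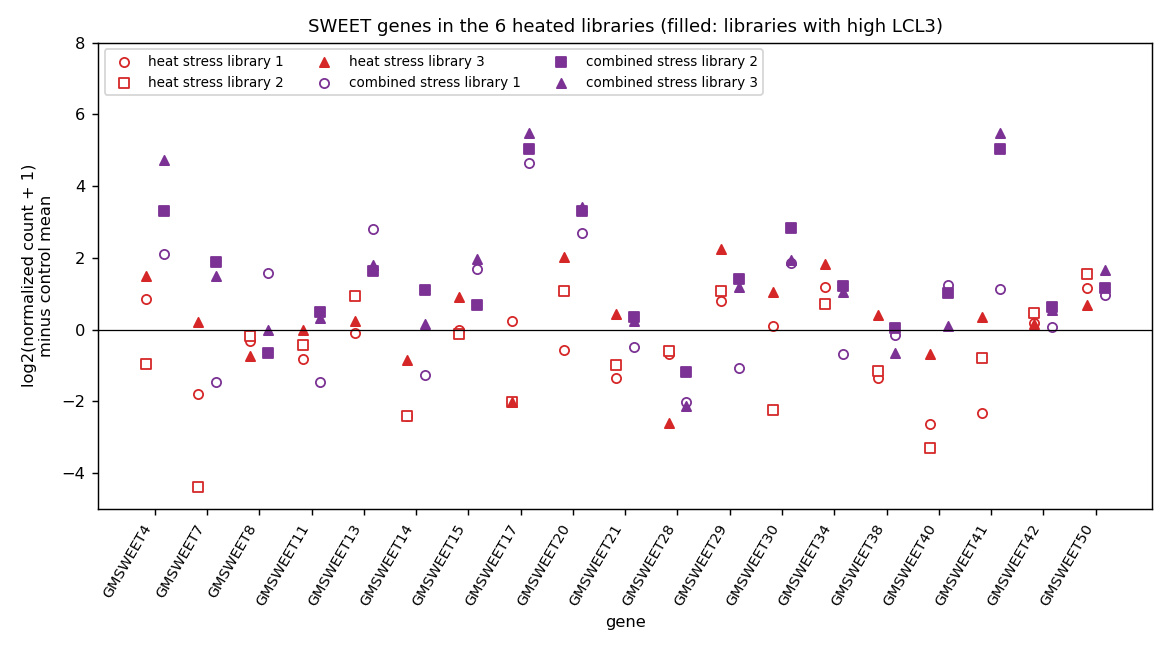
Level of each SWEET gene (x axis) in the 3 heat stress and 3 combined stress libraries, as log2(normalized count + 1) minus the mean of the 3 control libraries (y axis); filled symbols are the 3 libraries with high LCL3. Symbols of 1 group spread widely in GMSWEET7, GMSWEET29 and GMSWEET41, while the combined stress libraries of GMSWEET17 and GMSWEET20 lie close together.

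Of other genes that handle sugar, 7 symbols were found and 6 passed the minimum: SUT1, a sucrose transporter, MST1 and STP1, monosaccharide transporters, BMY1 and BMY2, beta-amylases that break down starch, and GBSSIa, a granule-bound starch synthase. None of the 6 passed the test in any treatment against control (limma). STP1 was lower in combined stress than in water deficit, by the log2 change of -1.35 (limma adjusted p 0.0468, SE 0.40); this call was kept without heat stress library 2 or 3 or combined stress library 2 and lost without any of the other 9 (adjusted p 0.0549 to 0.172). GBSSIa was higher in heat stress than in water deficit, by 1.10 (limma adjusted p 0.0419, SE 0.33), a call lost without any 1 of 7 libraries (control 2, water deficit 1, 2 and 3, heat stress 1 and 2, combined stress 3; adjusted p 0.0562 to 0.129). BMY1 had 4315, 3218 and 4423 normalized counts in control, 20765, 25443 and 8767 under water deficit, 915.5, 1370 and 755.5 under heat stress and 8365, 5785 and 1649 under combined stress. Its 3 heat stress libraries lay below all others and its water deficit libraries above all others. Heat stress differed from water deficit by -4.08 (limma adjusted p 0.00139, SE 0.54), a call kept in all 12 fits that left out 1 library. Combined stress lay between, at -1.95 from water deficit (limma adjusted p 0.036) and 2.13 from heat stress (limma adjusted p 0.0433). The first was lost without control library 1 or 2, water deficit library 1 or 2 or combined stress library 2 or 3 (adjusted p 0.0514 to 0.122). The second was kept without water deficit library 3, heat stress library 3 or combined stress library 3 and lost without any of the other 9 (adjusted p 0.052 to 0.152). Its values in water deficit and heat stress against control, 2.08 and -2.01 (SE 0.54 each), missed the threshold (limma adjusted p 0.0913 and 0.0669). SUT1 had 1181, 1454 and 1437 normalized counts in control, 1871, 1573 and 1733 under water deficit, 909.2, 936.8 and 1071 under heat stress and 2884, 1736 and 1074 under combined stress. Water deficit lay above control and heat stress below it without overlap, with log2 changes of 0.35 (limma adjusted p 0.667) and -0.48 (limma adjusted p 0.354) that did not pass.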

How the data were processed

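Leaf RNA was sequenced in 12 libraries, 3 in each of 4 groups assigned by the treatment label. Replicates were numbered in record order, so the numbers pair no libraries. The table deposited by the authors holds a signal per gene and library, named normalized counts. The submitters' processing notes name cutadapt 1.18, FastQC 0.11.7, STAR 2.4.0.1 and DESeq2 1.20.0, with no role or order. The genome build, annotation, counting method and strand setting are not given in the sources used here. Each column's values were whole multiples of the value of 1 read, and dividing by it gave whole reads for 100% of positive values (within 0.01). The number of columns without a sample was 0.

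The main test was limma 3.58.1 (R 4.3.3) applied to log2(normalized count + 1) after genes under a mean of 10 were dropped. All 4 groups entered a single fit with a variance trend, two-sided, with Benjamini-Hochberg adjustment over all genes tested within each of 7 contrasts. Log2 changes are on this scale, where values of low genes depend on the pseudocount and may be smaller or larger than with other methods. In combined stress against control, GMSWEET4 had 3.38 with limma and 4.31 with edgeR. GMSWEET17 had 5.06 and 4.62. edgeR 4.0.16 (quasi-likelihood, TMM) and DESeq2 1.42.0 on the recovered reads were alternatives, as were pseudocounts of 0.5 and 10, other filters, a common total per library, no trend, only the groups compared, and leaving out each library. The step was tested on simulated counts for 33119 genes, where 200 were changed in combined stress against control. There 69% of the 4-fold and 10% of the 2-fold changes were called, and 8 of the 87 calls were false. The real comparison called 4573 genes, far more than were changed here, so these shares do not give its sensitivity.

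The members, gene lists and tests were chosen with earlier results of these data known. Values per library are given for members called in any contrast and for the 3 of highest mean; other members are given by library, mean and SD, or range. Sugar handling genes were found by symbol. Name-table coordinates were used only to find neighbours. No sequences are shown.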

Additional observations from a re-analysis of the deposited data

How the results depend on the processing

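No paired analysis was possible because the labels give the groups no shared replicate numbers. Every called change kept its sign under every alternative in which it was tested. Counts of members called moved by more than 1.5 times as follows. With DESeq2 the count was 3 for water deficit against control, 4 for heat stress against control, 5 for combined stress against water deficit, 8 for combined stress against heat stress and 1 for the interaction. How many of all genes DESeq2 called is given below only for the comparisons against control. The other DESeq2 counts therefore support no statement about the family. With a minimum mean of 100, where only 8 members were tested, it was 0 for water deficit and 3 for combined stress against control, 1 for combined stress against heat stress and 2 for heat stress against water deficit. With only the groups compared it was 2 for water deficit against control and 1 for combined stress against heat stress, and without a variance trend it was 1 for combined stress against water deficit. All other settings stayed within 1.5 times. With 1 library left out, the counts ran from 0 to 2 for water deficit, 0 to 5 for heat stress and 2 to 8 for combined stress, each against control. They ran from 0 to 5 for combined stress against water deficit, 1 to 11 for combined stress against heat stress and 2 to 9 for heat stress against water deficit, and were 0 throughout for the interaction. Apart from the smaller number of members or libraries in some settings, the cause was not tested. Over all genes tested, edgeR called 324, 973 and 4381 and DESeq2 1873, 3314 and 6906 in water deficit, heat stress and combined stress against control, against 423, 1031 and 4573 with limma. With only the groups compared, limma called 1318 genes for water deficit and 295 for heat stress against control, 127 for combined stress against heat stress and 2542 for heat stress against water deficit, where the fit of all groups called 1724 and 5415 in the latter 2. Reads of low members such as GMSWEET4 limit their precision.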
